A study of Mus musculus with 20 samples.

Results

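The lipins and the enzymes that assemble and export triglyceride were followed across the livers of 20 mice, as 10 genes of the 18193 genes that had a probe set of their own on the array. The members were Lpin1, Lpin2, Lpin3, Gpam, Agpat2, Dgat1, Dgat2, Mogat1, Mttp and Tm6sf2, chosen by name. Where a gene had several probe sets, the one of highest average level across mice was used. The tested mice (MSXH, n = 10) ate a high-fat diet with 45 kcal% fat and 0.05% of a maple syrup extract for 4 weeks. The controls (HFD, n = 10) ate the 45 kcal% diet without the extract for 4 weeks. All were male C57BL/6J mice, an inbred strain, bought at 3 weeks of age, kept for a week on a low-fat diet and labelled eight-week-old. Livers were excised on day 30 after a 16 h fast, so every animal was fasted and had eaten a high-fat diet. Each liver gave 1 array, numbered 1 to 10 within its diet as a biological replicate, and the labels name no batch. A low-fat group and a lower-dose group of the same study were not analysed here.

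Triglyceride is built in liver by adding fatty acids step by step to glycerol 3-phosphate. Acyltransferases make phosphatidate, lipins remove its phosphate to give diacylglycerol, and diacylglycerol acyltransferases add the last fatty acid. The product is stored in lipid droplets or loaded onto apolipoprotein B and secreted as very-low-density lipoprotein (VLDL). Lipin 1 is also a nuclear cofactor of fatty acid oxidation genes in mouse liver, and fasting and glucocorticoids are known to raise its mRNA there.

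The deposited levels are on a scale taken as log2. Differences between arrays are strongly compressed on it, with a median SD between mice of 1.48e-05 over the 11728 genes tested, so they cannot be read as fold changes. Diet differences are therefore given as Hedges' g, the MSXH mean minus the HFD mean in units of the pooled SD, with a 95% interval. For members other than Lpin1, values of single mice are deviations from the mean of the 20 mice in millionths of a deposited log2 unit (1e-06). Tested genes had a mean of at least 6.505, the median of all probe sets that were not controls. By this filter 8 of 10 members were tested. Lpin3 (mean 6.38) and Mogat1 (mean 6.25) lay below it and were read from a fit without the filter. The hepatocyte markers Alb, Apoa1 and Ttr had means of 14.74, 14.59 and 14.46, whereas of the 3 adipocyte markers measured Adipoq (5.67) and Lep (6.23) lay below the filter and Retn (6.77) above it in both diets.

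Single mice stood apart in these genes before any comparison of diets. HFD replicate 3 was the lowest of the 20 mice in 7 of 10 members and among the lowest 3 in 9, the exception being Mttp. Among all genes tested it was the lowest mouse in 9.35% and among the lowest 3 in 20.5%. Its mean over the 10 members was -1.66 SD, against -0.00734 SD over all genes tested. At the other end, MSXH replicate 10 was among the highest 3 mice in 5 members and lay above the mean in all 10. It was also the highest mouse in 13.9% of all genes tested. HFD replicate 8 was among the highest 3 in 5 members and was the highest mouse in 3.46% of all genes tested. Its mean over the 10 members was 0.880 SD, against 0.164 SD over all genes tested. For MSXH replicate 10 these means were 0.990 and 0.226 SD. The share of all genes with these mice among the highest 3 was not computed. Correlations with Lpin1 are given over all 20 mice and also without HFD replicates 3 and 5, a pair chosen after seeing the data for its low Lpin1 level.

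**Figure D1:**
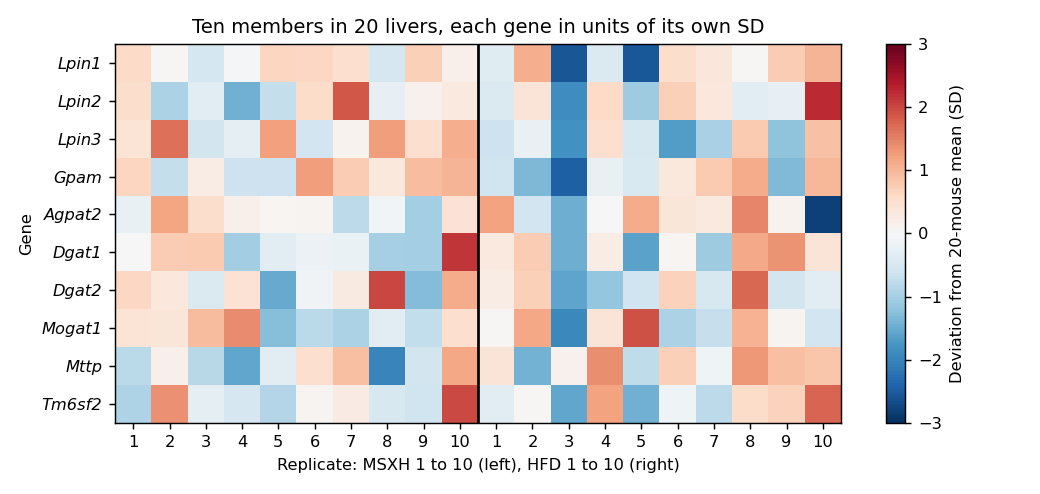
Heat map of the 10 members (rows) in 20 livers (columns, MSXH replicates 1 to 10 left of the line and HFD replicates 1 to 10 right of it), coloured by each gene's deviation from its 20-mouse mean in units of its own SD. The column of HFD replicate 3 is below the mean in 9 of 10 members, and that of MSXH replicate 10 is above it in 10 of 10.

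Lpin1, the lipin that responds to fasting in mouse liver, had the largest SD of the members on the deposited scale. Its level ran from 8.97 through a median of 9.07 to 9.12 in MSXH mice, and from 8.73 through a median of 9.06 to 9.16 in HFD mice. HFD replicates 3 and 5 both lay at 8.73, and the next lowest mouse of either diet was MSXH replicate 3 at 8.97. The remaining 8 HFD mice overlapped the MSXH mice, and the 2 highest mice were HFD replicates 2 and 10. The SD over the 20 mice was 0.118 log2 units, at the 99.9th percentile of the genes tested. Its 2 probe sets correlated closely over mice (Pearson r = 0.997, n = 20). HFD replicate 3 was lowest on both, while the highest MSXH mouse was replicate 9 on the probe set used and replicate 5 on the other.

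Mean Lpin1 did not differ past the threshold between the diets. It averaged 9.06 ± 0.06 in MSXH livers and 9.01 ± 0.16 in HFD livers (SD, n = 10 each), with g = 0.41 (95% interval -0.48 to 1.29, limma unadjusted p = 0.347, adjusted p = 0.9998). The sign of this difference rested on HFD replicates 3 and 5: without both, g was -0.29.

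**Figure D2:**
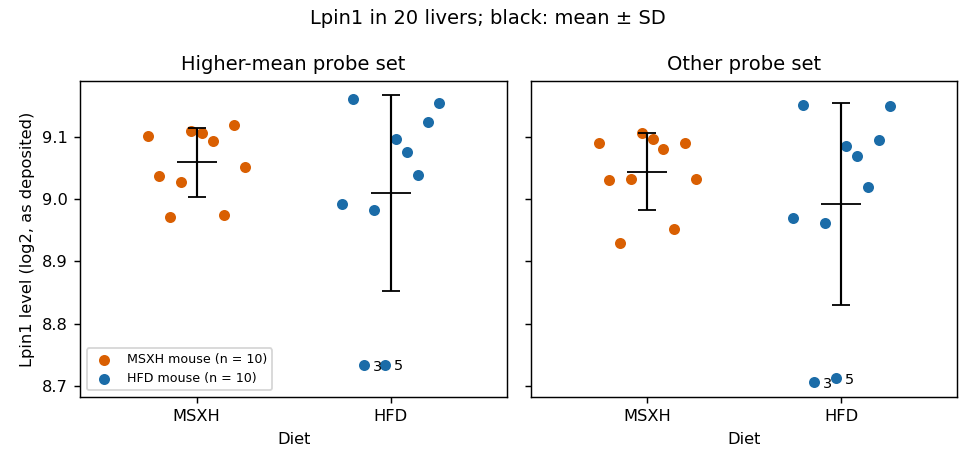
Lpin1 level (log2 scale as deposited) in each of 10 MSXH and 10 HFD mice, for the probe set with the higher mean (left) and the other (right), with the mean ± SD in black; the axis does not start at 0. HFD replicates 3 and 5 are numbered and lie at 8.73 on the left, below every other mouse, while the other mice of both diets overlap.

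The spread of Lpin1 over mice was compared between diets. Its SD was 0.0557 in MSXH mice against 0.158 in HFD mice, a ratio of 0.353, and the other probe set gave 0.379. Of all genes tested, 0.239% had a ratio as small. Among the 587 genes in the top 5% of SD, no gene besides Lpin1 had one. The test of spread compared absolute deviations from the diet median in limma, over all genes. By it Lpin1 had a log2 ratio of mean absolute deviation of -1.27 (unadjusted p = 0.0875, adjusted p = 0.999), and a two-sided permutation test over mice gave p = 0.0720 (100000 permutations, unadjusted). The difference in spread did not pass the threshold. The log2 ratio was -0.90 without HFD replicate 3, -0.91 without HFD replicate 5 and -0.26 without both.

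Lpin2, a lipin that is abundant in liver, had a smaller SD than Lpin1 on the deposited scale. In MSXH mice it ran from -613 through a median of -25.0 to 793 millionths, and in HFD mice from -798 through 18.96 to 955 millionths. The diets overlapped over nearly the whole range, with HFD replicate 3 lowest and HFD replicate 10 highest. The difference was g = -0.06 (95% interval -0.94 to 0.82, unadjusted p = 0.886). Its 3 other probe sets correlated with each other and with this one at r = 0.557 to 0.870 and gave g = 0.20, 0.30 and 0.51. The sign of the diet difference therefore depended on the probe set. The SD ratio was 0.836 for the probe set used and 0.616, 0.380 and 0.549 for the others, all smaller in MSXH, and its test of spread did not pass (unadjusted p = 0.681).

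Lpin3, the least studied lipin, had the largest g of the 10 members' probe sets, at a level below the filter. It ran from -3.07 through 2.50 to 8.97 millionths in MSXH mice and from -9.84 through -2.98 to 4.84 millionths in HFD mice. The groups overlapped, although the medians lay on either side of the 20-mouse mean. The difference was g = 1.04 (95% interval 0.11 to 1.97, limma unadjusted p = 0.0263, adjusted p = 0.9993), and a two-sided permutation test over mice gave p = 0.0277, unadjusted. It did not pass the adjustment. After all arrays were moved to a common median g was 0.60, and after quantile normalization it was -0.41.

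Upstream of the lipins, Gpam encodes the mitochondrial acyltransferase that starts glycerolipid synthesis. It ran from -26.5 through 18.1 to 46.6 millionths in MSXH mice and from -90.7 through -12.5 to 41.0 millionths in HFD mice. HFD replicate 3 lay lowest, and the diets overlapped. The difference was g = 0.63 (95% interval -0.27 to 1.53, unadjusted p = 0.150). A second Gpam probe set (r = 0.493 with the first) gave g = 0.15. Agpat2 encodes the acyltransferase that makes phosphatidate, and its loss causes lipodystrophy in humans. It ran from -155 through 11.1 to 179 millionths in MSXH mice and from -422 through 28.8 to 220 millionths in HFD mice, with HFD replicate 10 alone at the low end. Its mean differed by g = 0.06 (95% interval -0.81 to 0.94). Its SD ratio of 0.487 was the second smallest of the members after Lpin1, but the test of spread did not pass (log2 ratio -1.04, unadjusted p = 0.147). The log2 ratio was -0.60 without HFD replicate 10.

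Downstream of the lipins, Dgat1 and Dgat2 encode the unrelated enzymes of the last acylation. Dgat1 ran from -10.9 through -1.98 to 22.5 millionths in MSXH mice and from -16.8 through 2.70 to 14.0 millionths in HFD mice (g = -0.01, 95% interval -0.89 to 0.86). The MSXH high value was replicate 10. A second Dgat1 probe set correlated weakly with the first (r = 0.142). Its mean of 6.51 lay near the filter, and it gave g = 1.02 (95% interval 0.08 to 1.95). Dgat2 had g = 0.26 (95% interval -0.62 to 1.14), and its other probe set, with r = 0.656, gave g = -0.18. For both genes the size or sign of the difference thus depended on the probe set. Mogat1, an acyltransferase that makes diacylglycerol from monoacylglycerol, had g = -0.09 (95% interval -0.96 to 0.79) at a level below the filter.

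On the export side, Mttp encodes the transfer protein that loads lipid onto apolipoprotein B. It ran from -48.2 through -10.8 to 28.5 millionths in MSXH mice and from -34.5 through 13.3 to 33.7 millionths in HFD mice. MSXH replicates 4 and 8 were lowest, and the ranges overlapped. The difference was g = -0.66 (95% interval -1.56 to 0.24, unadjusted p = 0.135), and the second Mttp probe set (r = 0.743) gave g = -0.07. Tm6sf2 encodes a membrane protein of the secretory pathway needed for full lipidation of VLDL. It ran from -566 through -239 to 1227 millionths in MSXH mice and from -968 through -26.5 to 1078 millionths in HFD mice. Replicate 10 was the highest mouse in both diets and HFD replicate 3 the lowest. Its means were nearly equal (g = 0.00132, 95% interval -0.88 to 0.88), and without HFD replicates 3 and 5 g was -0.39.

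**Figure D3:**
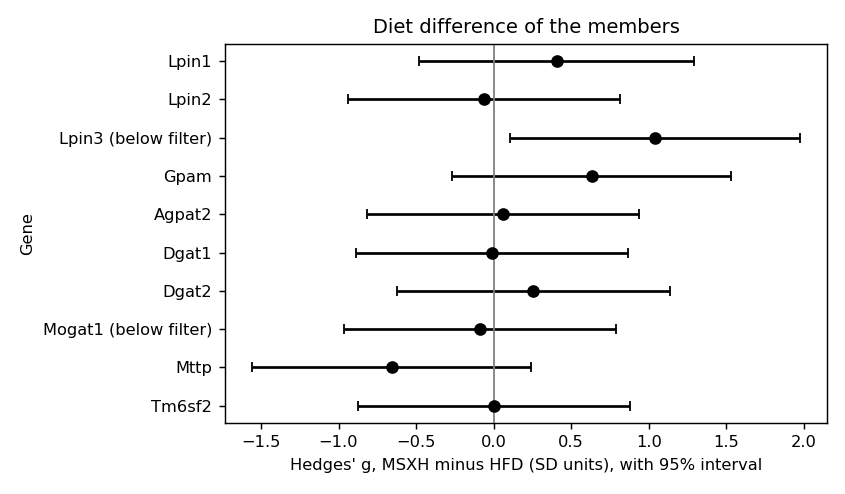
Hedges' g of each member, MSXH minus HFD (x axis, SD units), with its 95% interval, n = 10 mice per diet. Every interval except that of Lpin3 (0.11 to 1.97, below the filter) includes 0.

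Across the 10 members, 0 passed the threshold of adjusted p = 0.05 in limma, against 0% of all 11728 genes tested. At an unadjusted p under 0.05 stood 1 of 10 members, Lpin3, against 3.62% of genes tested. A Wilcoxon rank-sum test called 0 genes after adjustment and 399 before it. Of the members, 6 were higher and 4 lower in MSXH, with a median g of 0.0319, against a median of -0.00692 over all genes tested.

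In spread, 8 of 10 members had the smaller mean absolute deviation in MSXH, and Dgat2 and Mttp the larger. Among all genes tested, 50.7% had the smaller one in MSXH. None of the members passed the test of spread, which called 1 gene (0.00853%) over all, and 366 genes at an unadjusted p under 0.05 (3.12%). That gene was Pwwp2b, named here after its values were seen, with an SD of 1.47e-06 in MSXH mice and 6.41e-06 in HFD mice at a mean of 6.61 near the filter (adjusted p = 0.0246). The members' count turned on single mice: 5 of 10 were smaller in MSXH without HFD replicate 3, and 4 of 10 without HFD replicates 3 and 5. After all arrays were moved to a common median it was also 5 of 10. The members' median SD ratio was 0.830, against 0.993 over all genes tested. By SD over the 20 mice, Tm6sf2 stood at the 96.1st percentile of the genes tested, Lpin2 at 94.9, Agpat2 at 89.9, Gpam at 73.2, Mttp at 64.0, Dgat1 at 38.4 and Dgat2 at 18.3.

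**Figure D4:**
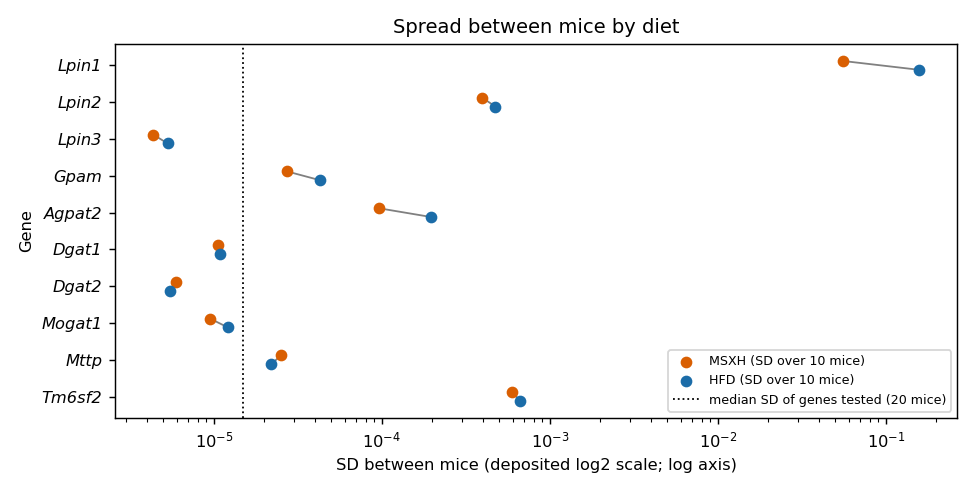
SD between mice of each member in 10 MSXH (orange) and 10 HFD (blue) mice, on the deposited log2 scale with a logarithmic axis; the dotted line is the median SD over 20 mice of the genes tested, 1.48e-05. Lpin1 lies at 0.0557 in MSXH and 0.158 in HFD, and Dgat2 and Mttp are the members with the larger SD in MSXH.

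Co-variation over mice is given as a description, since the choice of members named it, and values of the same mouse share an array. Of 45 pairs of members, 6 had r of at least 0.5 over the 20 mice and 0 had r of -0.5 or below. Each member had an r of at least 0.5 with 1.43% to 9.05% of the genes tested and of -0.5 or below with 0.657% to 8.36%. Without HFD replicate 3 the pairs numbered 5 and 4, without HFD replicates 3 and 5 they numbered 4 and 2, and after quantile normalization, which left 36 pairs, 5 and 1. The closest pair was Dgat1 and Tm6sf2, with r = 0.779 and rho = 0.783. Within diets r was 0.787 in MSXH and 0.773 in HFD, and it was 0.663 without the 2 mice farthest from the Dgat1 median and 0.698 without HFD replicates 3 and 5. Of the genes tested, 0.196% had an r with Dgat1 as high and 0.102% an r with Tm6sf2 as high. That pair rested on the Dgat1 probe set of higher mean, since the other gave r = 0.118. Mttp had r = 0.600 with Tm6sf2 and r = 0.504 with Dgat1. Of the genes tested, 4.34% had an r with Mttp and 3.18% an r with Tm6sf2 as high as the first. As high as the second were 8.11% with Dgat1 and 8.82% with Mttp. Over the combinations of probe sets, r ran from 0.521 to 0.600 for Mttp and Tm6sf2. For Dgat1 and Mttp it ran from -0.213 to 0.504, so the sign depended on the probe set. These values are those as deposited. After all arrays were moved to a common median, Dgat1 and Tm6sf2 had r = 0.47 and Dgat1 and Mttp r = 0.76. After quantile normalization Mttp had r = -0.23 with Tm6sf2 and r = -0.04 with Dgat1.

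The other close pairs were Lpin2 with Gpam, Lpin1 with Lpin2, and Agpat2 with Mogat1 (r = 0.502, and 0.341 without HFD replicates 3 and 5). Lpin3 was in no such pair. Lpin2 and Gpam had r = 0.637 (rho = 0.544), with 0.786 in MSXH and 0.642 in HFD, 0.626 without the 2 mice farthest from the Lpin2 median and 0.50 without HFD replicates 3 and 5. Lpin1 and Lpin2 had r = 0.634 (rho = 0.571). Within diets this was 0.425 in MSXH and 0.783 in HFD, and without HFD replicates 3 and 5, the 2 mice farthest in Lpin1, it was 0.464. Of genes tested, 2.13% had an r with Lpin1 as high. Over the 8 combinations of their probe sets r ran from 0.308 to 0.634, and after quantile normalization it was 0.0359. The weaker positive ties of Lpin1 to Gpam, Dgat1 and Tm6sf2 rested on those 2 mice. Without them r was 0.0269 with Gpam, against 0.446 in all 20 mice. It was 0.0286 with Dgat1 against 0.472, and 0.0251 with Tm6sf2 against 0.459. With Agpat2 r was more negative without those mice, at -0.586 against -0.205, and so with Mogat1, at -0.360 against -0.133. With Lpin3 and Dgat2 it changed sign, to -0.136 from 0.282 and to -0.242 from 0.219. The value for Lpin2 and Agpat2 (r = -0.458) moved both ways with single mice. It was -0.0134 without HFD replicate 10 and MSXH replicate 7, -0.173 without HFD replicate 10 alone, -0.724 without HFD replicate 3 and -0.702 without HFD replicates 3 and 5.

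**Figure D5:**
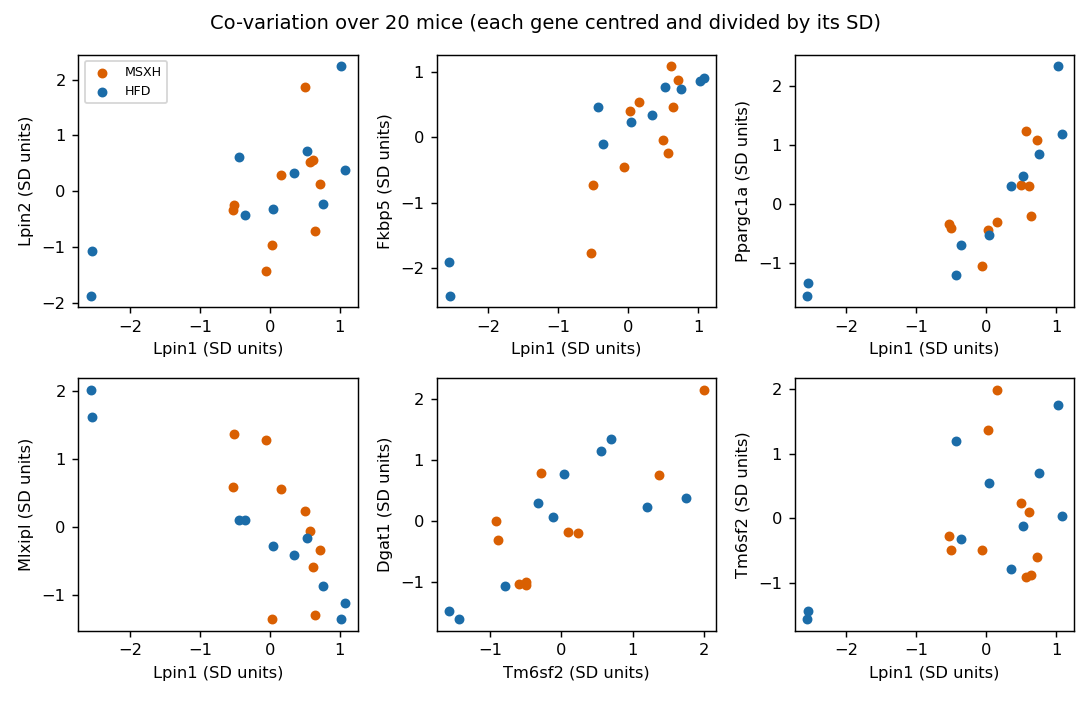
Scatter plots over 20 mice (MSXH orange, HFD blue), each gene centred on its mean and divided by its SD. HFD replicates 3 and 5 are the pair at the far left of every Lpin1 panel; in Dgat1 against Tm6sf2 (r = 0.779) they are the pair at the lower left, the lowest mice in both genes, and Mlxipl falls as Lpin1 rises (r = -0.802).

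Because Lpin1 and Lpin2 moved together and glucocorticoid, cAMP and clock signals are known to act on such genes, the 250 bases before a start of each are shown. They come from RefSeq (mouse build GRCm38.p6), where 7 of 10 members matched, all but Dgat1, Dgat2 and Tm6sf2. Each runs 5′ to 3′ on the gene's strand, and capitals mark motif matches on either strand. The motifs searched were a full glucocorticoid response element (its 2 arms in opposite directions around any 3 bases, with 1 base of each arm left free), AGAACA (an arm of it, which a full element can contain), TGACG (the core of a cAMP response element) and CACGTG (an E-box). The Lpin1 window lies at chr12:16610967-16611216, minus strand, before a start inside the annotated gene. The Lpin2 window lies at chr17:71183282-71183531, plus strand, and is the first of 3.
Lpin1: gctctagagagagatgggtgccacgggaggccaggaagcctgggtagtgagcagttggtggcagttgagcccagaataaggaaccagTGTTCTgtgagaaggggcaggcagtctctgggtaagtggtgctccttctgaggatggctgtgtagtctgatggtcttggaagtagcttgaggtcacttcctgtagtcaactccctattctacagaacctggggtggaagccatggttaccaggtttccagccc
Lpin2: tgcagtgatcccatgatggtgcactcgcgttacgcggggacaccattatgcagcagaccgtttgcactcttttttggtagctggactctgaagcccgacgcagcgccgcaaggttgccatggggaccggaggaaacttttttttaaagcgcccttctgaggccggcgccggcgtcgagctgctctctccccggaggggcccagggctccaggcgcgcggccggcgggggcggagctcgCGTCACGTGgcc
The Lpin1 window holds AGAACA, read as TGTTCT, with 157 bases between it and the start. The Lpin2 window shown holds TGACG, read as CGTCA, 7 bases before the start, and CACGTG 3 bases before it, and these share 2 letters. AGAACA also lies in another of the 3 Lpin2 windows, 197 bases before its start, and in 1 window each of Lpin3 and Mttp. TGACG also lies in 1 window each of Gpam and Mttp. No window of the 7 members held the full glucocorticoid element. All 32851 windows available were searched over the 250 bases before the start. Of these, 0.387% held the full element, 16.1% AGAACA, 17.8% TGACG and 6.02% CACGTG, so the short motifs are common. A match is a string of letters and not a site shown to be bound.

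The genes most like Lpin1 were sought among the 587 genes in the top 5% of SD. Highest were Cdip1 (r = 0.906), Slc7a2, a cationic amino acid transporter (0.879), St3gal5, which makes the ganglioside GM3 (0.878), Fkbp5, a glucocorticoid-induced co-chaperone (0.876), and the mitochondrial carrier Slc25a51 (0.866). Without HFD replicates 3 and 5 these were 0.716, 0.898, 0.615, 0.712 and 0.789. Lowest were the tight junction gene Cldn1 (r = -0.834), Slc66a2 (-0.822) and Depdc7 (-0.783), and without those mice -0.694, -0.812 and -0.681. For Tm6sf2, the other member in the top 5%, the highest were Lbp, the lipopolysaccharide-binding protein of the acute phase (0.831), Gfra1 (0.781), Tedc2 (0.757), Nrbp2 (0.753) and the carbonyl reductase Cbr1 (0.748). The lowest were the carbonic anhydrase Car3 (-0.813), Sec61b, a subunit of the translocon (-0.804), and Nat8f1 (-0.793).

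All 7 genes on the list of those that glucocorticoids induce had r of at least 0.5 with Lpin1 over the 20 mice (median 0.782), against 5.33% of all genes tested. The gene lists were chosen with earlier results of these data known, so such counts are a description and not independent support. SDs of the 7 over the 20 mice ran from 7.81e-04 for Sgk1 to 0.168 for Mt2, against a median of 1.48e-05 over the genes tested. The share among genes of like SD was not computed. The r of the 7 ran from 0.491 to 0.715 without HFD replicates 3 and 5, and 6 of 7 reached 0.5, against 3.75% of all genes. Within diets r ran from 0.352 to 0.788 in MSXH and from 0.748 to 0.972 in HFD, and this difference between diets was not tested. Tat, the tyrosine aminotransferase of amino acid breakdown, had r = 0.843, within diets 0.679 in MSXH and 0.972 in HFD, and 0.667 without HFD replicates 3 and 5. Fkbp5 had 0.788 in MSXH and 0.970 in HFD. In HFD replicates 3 and 5 Fkbp5 stood at -1.90 and -2.42 SD from its mean. The lowest of the 7 over all mice was Mt2, a metallothionein, with r = 0.582, 0.417 in MSXH and 0.748 in HFD. The lowest in MSXH was Per1, a clock gene that glucocorticoids induce, with 0.352. None of the 7 had an unadjusted p under 0.05 between diets (median g = 0.0204), and Mt2 (g = -0.28, p = 0.511) had the smallest p.

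Regulators and partners of lipins went both ways with Lpin1. Ppargc1a, the coactivator of the fasting response, had r = 0.786 (0.675 in MSXH, 0.842 in HFD, 0.834 without HFD replicates 3 and 5), and Ppargc1b had r = 0.740 (0.533 in MSXH, 0.806 in HFD, 0.709 without those mice). Hnf4a, a hepatocyte transcription factor, had r = 0.685 (0.0551 in MSXH, 0.878 in HFD) but 0.386 without those mice. In the other direction lay Mlxipl, the carbohydrate-responsive factor of fat synthesis, with r = -0.802 (-0.611 in MSXH, -0.980 in HFD, -0.682 without those mice), and Nr3c1, the glucocorticoid receptor itself, with r = -0.768 (-0.298 in MSXH, -0.877 in HFD, -0.538 without those mice). Of 10 regulators tested, 3 had r of at least 0.5 and 2 of -0.5 or below, where 5.33% and 8.36% of all genes tested did. The counts were 2 and 2 without HFD replicates 3 and 5, against 3.75% and 7.84%. Between diets 0 of 10 had an unadjusted p under 0.05, and the smallest p were those of Hnf4a (g = 0.42, p = 0.327) and Nr1h3, the liver X receptor (g = -0.39, p = 0.378).

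Among 7 fasting and PPAR-alpha target genes tested, 1 had r of at least 0.5 with Lpin1 and 2 of -0.5 or below (median 0.0725). Of all genes tested, 5.33% and 8.36% did. The counts were 1 and 1 without HFD replicates 3 and 5, against 3.75% and 7.84%. Pck1 of gluconeogenesis had r = 0.809, and 0.651 without HFD replicates 3 and 5. The lipid droplet coat gene Plin2 had r = -0.588 and the fasting hormone Fgf21 r = -0.571, which were -0.721 and -0.499 without those mice. Plin2 (g = 0.35, p = 0.420) and G6pc (g = -0.32, p = 0.460) had the smallest p between diets. Of 7 fatty acid synthesis enzymes, 0 had r of at least 0.5 and 1 of -0.5 or below, against 5.33% and 8.36% of all genes tested, and r ran from -0.503 for Scd1, the main desaturase, to 0.462 for Thrsp (median -0.303). The elongase Elovl6 had r = -0.486. Scd1 had -0.397, Elovl6 -0.346 and Thrsp 0.237 without those mice, and 1 of 7, Acaca, then lay at -0.5 or below, at -0.708. The mean of the 7 in SD units had r = -0.374 with Lpin1, and -0.627 without those mice. Within diets r of the 7 ran from -0.914 (Acaca) to -0.178 in MSXH, with a median of -0.660. In HFD it ran from -0.770 to 0.655, with a median of -0.300, and this difference between diets was not tested. The smallest p between diets there were those of Me1, which makes NADPH (g = 0.66, p = 0.134), and Scd1 (g = 0.65, p = 0.139). Of 6 clock genes tested, 0 reached r of 0.5 with Lpin1, against 5.33% of all genes, with Per2 at 0.498 and Tef at 0.488, and 0.431 and 0.504 without those mice. Per1, counted above among the glucocorticoid-induced genes, is also a clock gene and had r = 0.766, and 0.551 without those mice. The smallest p between diets were those of Nr1d1 (g = 0.42, p = 0.332) and Tef (g = 0.38, p = 0.380).

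No diet difference was called in the rest of the triglyceride pathway. Of 13 other enzymes of glycerolipid assembly tested, 7 were higher and 6 lower in MSXH (median g = 0.0695), none at an unadjusted p under 0.05. Agpat4 (g = -0.81, p = 0.0711) and Cds2, which diverts phosphatidate to CDP-diacylglycerol (g = -0.57, p = 0.190), had the smallest p. With Lpin1, Agpat3 had r = 0.757 and Cept1 of phospholipid synthesis r = -0.552, and 0.659 and -0.640 without HFD replicates 3 and 5. Of 11 partners of VLDL assembly and secretion tested, 6 were higher and 5 lower (median g = 0.0730), none at an unadjusted p under 0.05. Cideb of VLDL lipidation had g = -0.65 (p = 0.142) and the lipase Ces1d g = 0.52 (p = 0.228). In this list P4hb, the partner subunit of the Mttp protein, had r = -0.600 with Lpin1 (-0.457 in MSXH, -0.715 in HFD, -0.462 without HFD replicates 3 and 5). The cargo receptor Surf4 had r = -0.561 (0.0826 in MSXH, -0.692 in HFD, -0.427 without those mice). Of 7 genes that supply glycerol 3-phosphate and acyl-CoA, 4 were higher and 3 lower (median g = 0.124), none at an unadjusted p under 0.05. Slc27a5 (g = -0.38, p = 0.430) and Gpd1 (g = 0.27, p = 0.529) had the smallest p. The r farthest from 0 with Lpin1 were those of Dbi, which binds acyl-CoA (-0.432), and Gpd1 (-0.412). Dbi had -0.180 and Gpd1 -0.495 without HFD replicates 3 and 5, and Acsl4, an acyl-CoA synthetase, was then farthest at 0.568, against 0.289 over all 20 mice.

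Markers of cell types were read beside Lpin1, because in bulk liver fewer cells of a type and less RNA per cell cannot be told apart. The mean of the 3 hepatocyte markers measured, in SD units, had r = 0.538 with Lpin1 and ran from -1.28 to 0.98 in MSXH mice and from -1.23 to 0.79 in HFD mice. This r was 0.499 without HFD replicates 3 and 5. Of the 3, Apoa1 had the highest r (0.675, and 0.512 without those mice) and Ttr the lowest (-0.101, and 0.0116 without them). Their SDs over all mice were 4.97e-08 for Alb, 5.53e-08 for Apoa1 and 5.90e-08 for Ttr, against a median of 1.48e-05 over the genes tested. SD units thus scale up very small deposited differences in these 3 genes. The mean of the 5 stellate cell markers had r = -0.428, with Lrat, which stores retinol, at r = -0.744. This mean ran from -1.25 to 1.40 in MSXH mice and from -1.16 to 0.82 in HFD mice. Without those mice the stellate list had r = -0.255 and Lrat -0.605. The 5 Kupffer cell markers had r = -0.334 and the 5 sinusoidal endothelial markers r = 0.241, and -0.112 and -0.108 without those mice. The 3 exocrine pancreas markers measured had r = 0.330, the 2 red blood cell markers -0.258, the 5 enterocyte markers 0.108, the 5 skeletal muscle markers -0.0153 and the 3 adipocyte markers 0.000431. Without those mice these were 0.0299, 0.0313, 0.0307, 0.250 and 0.00841. Single pancreas and red blood cell markers went both ways. Prss2 had r = 0.577, Cpa1 0.271 and Cela1 -0.320, which were 0.668, -0.192 and -0.449 without those mice. Alas2 of red blood cells had r = -0.570 and Hba-a1 0.207, which were -0.462 and 0.465 without them. The part of cell composition in the spread of Lpin1 was not tested. Of the markers tested, Acta1 of muscle (g = -1.23, p = 0.0127) and Fabp2 of enterocytes (g = -1.19, p = 0.0108) had an unadjusted p under 0.05 between diets, both lower in MSXH and neither past the adjustment. They were 1 of 3 muscle and 1 of 3 enterocyte markers tested, where 3.62% of all genes tested had such a p. Of the others tested on these lists, Mb (g = 0.28) and Lct (g = 0.27) were higher in MSXH, and Ckm (g = -0.08) and Apoa4 (g = -0.40) lower. Below the filter, in the fit without it, the muscle marker Tnnt3 had g = -1.09 (limma unadjusted p = 0.0212), not past the adjustment. There Myh4 of muscle had g = 0.21, and Vil1 and Alpi of enterocytes g = -0.28 and -0.15. Fabp2 had a mean of 11.07 in both diets, whereas the enterocyte markers Vil1 (5.97) and Alpi (6.22) lay below the filter.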

How the data were processed

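Liver RNA of 20 mice was measured on Affymetrix 3' IVT arrays from 200 ng of total RNA, per the labels' protocols. The deposited values were taken as log2 from their range (5.20 to 14.96). How the authors corrected, normalized and summarised the probes is not stated in the labels, and a strong compression between arrays limits what a difference means. No 2 arrays held identical values. Signal over background is unknown; precision is limited by having 20 arrays.

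Of 45101 probe sets, 64 were controls. The platform annotation gave 1 gene for 34945, several for 932 and none for 9160. The probe set of highest mean stood for each of 18193 genes, and 11728 with a mean of at least 6.505 were tested. Groups followed the labels' diets, MSXH minus HFD. Means, and absolute deviations from the diet median, were tested by lmFit and eBayes of limma 3.58.1 (R 4.3.3) with Benjamini-Hochberg adjustment at 0.05. P-values assume the mice are independent samples. Correlations carry no test. Scripts were tested on simulated data. Python 3.11.15, scipy 1.17.1 and matplotlib 3.10.9 were used.

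Named genes were the 10 members, the 5 highest and 3 lowest correlates of members in the top 5% of SD, and up to 2 by smallest p and 2 by r with Lpin1 from each of 8 gene lists. Ppargc1b, Nr3c1, Fgf21, Thrsp, Acaca, Per1, Acsl4, Pwwp2b and single cell type markers were named after their values were seen. Members, lists and tests were chosen with earlier results of these data known. Alternatives changed scaling, filter, probe set, variance model, test, spread measure, block and mice.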

Additional observations from a re-analysis of the deposited data

Results flagged for a closer look

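Each member was examined in each diet for a mouse far from the other 9, by Dixon's ratio of gap to range with the critical value of 0.466 for 10 samples. Of the 20 sets, 0 passed, where chance gives about 1. In Lpin1 the low mice of HFD were a pair, which this measure does not pick up, since each lies close to the other.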

How the results depend on the processing

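The members' means gave 0 calls between diets under every alternative run, leave-outs included, and the adjusted p of members ranged from 0.906 to 1.00. Signs were not stable. Without HFD replicates 3 and 5 together, chosen after seeing the data, g was -0.29 for Lpin1 and -0.39 for Tm6sf2. The mean over probe sets gave g of 0.33 for Lpin2, 0.25 for Dgat1 and -0.0109 for Dgat2. Quantile normalization gave -0.41 for Lpin3, 0.40 for Mogat1 and -0.0843 for Tm6sf2, and left Gpam without variation. Arrays shifted to the same median gave 0.15 for Dgat1 and 0.13 for Mogat1. The array medians spanned 43.7 millionths, so this shift moved arrays against each other by up to that amount. That span exceeded the SD over all mice of Lpin3, Gpam, Dgat1, Dgat2, Mogat1 and Mttp. The cause of other changes was not tested. Leaving out 1 mouse gave g of -0.28 to 0.19 for Lpin2, -0.29 to 0.23 for Agpat2, -0.27 to 0.13 for Dgat1, -0.32 to 0.12 for Mogat1 and -0.23 to 0.20 for Tm6sf2. Genes with an unadjusted p under 0.05 between diets numbered 425, against 140 with the median shift, 128 after quantile normalization, 780 without the filter, 197 above the 75th percentile and 704 over single probe sets.

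For spread, the log2 ratio of Lpin1 ran from -1.56 to -0.90 without 1 mouse. After quantile normalization it was 0.42 for Lpin2, 0.32 for Lpin3, -0.22 for Dgat2 and -0.74 for Mttp. The median shift gave 0.0633 for Lpin3, 0.40 for Dgat1 and 0.26 for Mogat1, and the mean over probe sets -0.0459 for Dgat2. Without HFD replicates 3 and 5 it was 0.29 for Lpin2, 0.47 for Dgat1, 0.34 for Mogat1 and 0.00897 for Tm6sf2. Without 1 mouse it ran from -0.58 to 0.15 for Lpin2, -0.55 to 0.13 for Dgat1, -0.22 to 0.38 for Dgat2 and -0.40 to 0.0480 for Mogat1. The 1 gene called in spread was 0 with the median shift, the 75th percentile filter, single probe sets, the mean over probe sets, the trended robust variance, unit SD, the replicate block, squared deviations or without HFD replicates 3 and 5, and 4 after quantile normalization. Without 1 mouse it was 0 or 1. Unadjusted spread calls numbered 366, against 208 with the median shift, 602 without the filter, 206 above the 75th percentile, 585 over single probe sets and 596 by deviation from the mean.

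Pairs of members with r of at least 0.5 numbered 6, against 15 with the median shift and 5 to 8 without 1 mouse. Quantile normalization gave r of -0.177 for Lpin2 and Tm6sf2, -0.229 for Mttp and Tm6sf2 and -0.0383 for Dgat1 and Mttp.

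Replicate numbers are shared between diets, but the labels do not say that a number pairs mice. Same-numbered arrays correlated at -0.133 to 0.369 in their deviations from the diet means (mean 0.0530, against -0.00601 for other numbers), and 2 of 20 arrays were closest to their own number. With the replicate block, 0 genes differed in mean (501 at an unadjusted p under 0.05) and 0 in spread (368).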
